A study of Mus musculus with 4 samples.

Results

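Macrophages of the mouse brain were followed through 10 genes. *Mrc1*, *Lyve1*, *Cd163*, *F13a1* and *Pf4* mark macrophages resident at the borders of the brain. *Ms4a7*, *Cd5l*, *Lgals3*, *Cd36* and *Clec12a* were taken here as genes of macrophages that enter or change within a lesion. All 10 were picked by gene name from 33981 genes in the joined tables. The stroke differences in these libraries were already known to the person who picked them. Differences between stroke and sham are therefore given for the 10 genes as a description. Counts of calls among them are not read as a test. Tests are given for the effect of angiotensin II and for its interaction with stroke. RNA came from a coronal brain section that included the prefrontal cortex of male C57BL/6J mice aged 3 to 5 months. NT (normotensive) mice received saline and HT (hypertensive) mice angiotensin II, 0.28 mg/kg/day, from a subcutaneous pump over 28 days. Sham surgery or photothrombotic (PT) stroke, in which light and an injected dye clot vessels of the cortex, was performed on day 7, and tissue was collected on day 28. The sham groups (NT + Sham, HT + Sham) and the stroke groups (NT + Stroke, HT + Stroke) had 6 libraries each, 24 in all. The labels do not say how many mice made a library. Each was treated as 1 mouse, so *P*-values measure the spread between these libraries.

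Border macrophages live in the meninges, in the spaces around penetrating vessels and in the choroid plexus, outside the parenchyma that microglia occupy. They take up debris and plasma components, and MRC1, LYVE1 and CD163 on their surface are scavenger or uptake receptors. After an infarct, macrophages derived from blood monocytes and from cells already present gather in the dead tissue, where they load lipid and clear myelin and other debris. CD36 is a scavenger receptor for oxidised lipid, CD5L is a secreted protein of tissue macrophages, LGALS3 is a galactose-binding lectin, CLEC12A is an inhibitory myeloid receptor that binds products of dead cells, and MS4A7 is a membrane protein carried by macrophages but little by microglia. None of the 10 genes belongs to 1 cell type alone, and border macrophages may also carry the lesion genes. *Pf4* is also abundant in platelets, *Lyve1* in lymphatic endothelium and *Cd36* in capillary endothelium.

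Total counts were 15922919 to 24865998 per library. Neurons, the main cells of the section, were represented in every library, with the summed level of 6 neuronal genes between 5231 and 7735 CPM (counts scaled to library size). On genes other than the macrophage genes, 4 libraries stood apart from the rest of their groups. The library labelled HT + Sham 6 had 10975 counts of the astrocyte gene *Gfap* and 210 of the complement gene *C3*, where its group otherwise had 3033 to 4081 and 1 to 28. The libraries labelled HT + Stroke 1 and HT + Stroke 6 had 4376 and 3616 counts of *Gfap* and 51 and 54 of *C3*, where the rest of their group had 16490 to 29891 and 601 to 2736. For comparison, *Gfap* was 2533 to 3488 counts in NT + Sham and 11947 to 26698 in NT + Stroke, and *C3* was 1 to 7 and 559 to 1514. Both genes thus differed with stroke themselves, and are not a measure apart from the stroke response. The library labelled HT + Stroke 3 had 4863 counts of *Scgb1c1* and 1189 of *Bpifa1*, genes of nasal and airway epithelium, where other libraries of its group had up to 46 and 206. The labels were kept as given. Results that rest on HT + Sham 6, HT + Stroke 1 or HT + Stroke 6 are given with and without these 3. That choice was made after the data, the macrophage genes included, were seen. Results that turn on HT + Stroke 3 are given without it as well.

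In NT + Sham mice, all 10 genes were at low levels, and 4 of the 5 lesion genes were below every border gene in mean FPKM. Per length, *Pf4* (a chemokine) was highest at 2.06 ± 0.583 FPKM (fragments scaled to gene length and library size, mean ± SD, n = 6) and was above the next gene in 6 of 6 libraries. *Mrc1* (0.531 ± 0.106 FPKM) and *Cd163* (0.472 ± 0.157 FPKM), a receptor for haptoglobin-bound haemoglobin, came next and did not differ beyond their spread. *Lgals3* (0.329 ± 0.186 FPKM), *Lyve1* (0.314 ± 0.115 FPKM), which encodes a hyaluronan receptor, and *F13a1* (0.312 ± 0.0876 FPKM), the A subunit of clotting factor XIII, could not be ordered either. *Cd36*, *Clec12a* and *Ms4a7* were at 0.156, 0.149 and 0.103 FPKM. *Cd5l* had 0 counts in 4 of 6 NT + Sham libraries, 1 in library 6 and 7 in library 2, a mean of 0.0354 FPKM. A count of 0 still allows a *Cd5l* level of up to 0.140 to 0.178 CPM in the 7 sham libraries where it occurred, counting error only.

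*Mrc1* and *Cd5l* are shown as the examples of a border gene and a lesion gene, because their levels after stroke lay far apart in these libraries. Their promoter windows run from 250 bases before to 50 bases after the RefSeq start site on GRCm38.p6, 5′ to 3′ on the gene's strand, with capitals at each GAGGAA, the core of sites for the myeloid factor PU.1, read on either strand (TTCCTC on the other).
Mrc1, chr2:14229164-14229463, plus strand: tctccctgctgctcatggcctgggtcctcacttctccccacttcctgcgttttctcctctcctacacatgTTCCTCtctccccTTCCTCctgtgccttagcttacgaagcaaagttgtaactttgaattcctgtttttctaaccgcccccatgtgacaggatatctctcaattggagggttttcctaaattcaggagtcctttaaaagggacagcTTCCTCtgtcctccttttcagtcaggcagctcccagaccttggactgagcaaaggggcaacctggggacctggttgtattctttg
Cd5l, chr3:87357631-87357930, plus strand: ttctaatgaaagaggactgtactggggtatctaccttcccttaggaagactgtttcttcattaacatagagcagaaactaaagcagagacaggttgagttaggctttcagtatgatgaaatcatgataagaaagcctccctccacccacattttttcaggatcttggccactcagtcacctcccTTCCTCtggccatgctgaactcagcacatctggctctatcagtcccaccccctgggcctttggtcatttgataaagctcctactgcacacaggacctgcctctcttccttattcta
The *Mrc1* window held 3 matches, which began 180, 167 and 35 bases before the start site, and the *Cd5l* window held 1, which began 66 bases before it. Windows were listed for 9 of the 10 genes, and *Lyve1* was not matched. There were 11 windows, with 2 each for *F13a1* and *Ms4a7*. A gene was counted if any of its windows held a match, whereas the shares of all windows count each window, so the 2 are unlike measures. GAGGAA was in the windows of 3 of 4 border genes (*Mrc1*, *F13a1* and *Pf4*) and 3 of 5 lesion genes (*Ms4a7*, *Cd5l* and *Clec12a*), and in 28.3% of all 32851 promoter windows. TGANTCA, the site of the AP-1 factors on either strand, was in the windows of 0 of 4 border genes and 2 of 5 lesion genes (*Ms4a7* and *Clec12a*), and in 7.81% of all windows. Matches to the 2 motifs cannot overlap, and a match is only a run of letters.

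After stroke in NT mice, the 5 lesion genes were higher by 4.94-fold to 526-fold, whereas border genes ranged from 0.914-fold to 2.09-fold. The border genes had a median log2 fold change of 0.93 and the lesion genes of 4.01, beside −0.01 over all genes tested. Of 16835 genes tested, 14.4% had an adjusted *P* under 0.05 and were higher, and 11.5% were lower. Of the 10 genes, 8 were among the higher genes (3 of 5 border and 5 of 5 lesion) and 0 among the lower. The groups did not overlap, with stroke higher, in 7.78% of genes, and in 5 of the 10 (*Mrc1*, *Ms4a7*, *Cd5l*, *Lgals3* and *Cd36*). Because the choice of genes used this contrast, nothing is read from these counts. In bulk tissue, more cells of a type and more RNA per cell cannot be told apart.

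Among the lesion genes, *Lgals3* (ENSMUSG00000050335, chromosome 14, 47367751 to 47386160) was 8.41 to 85.1 CPM in NT + Stroke, median 55.3, and 0.101 to 1.10 CPM in NT + Sham, median 0.595. Every stroke library lay above every sham library, the lowest of them library 4, and the log2 fold change was 6.30 (SE 0.673). *Cd5l* (ENSMUSG00000015854, chromosome 3, 87357881 to 87371073) was 2.72 to 70.9 CPM in NT + Stroke, median 39.4, against at most 0.381 CPM in NT + Sham. Its log2 fold change of 9.04 (SE 1.14) rested on 8 sham counts and was 11.24 without library 2 of NT + Sham, which held 7 of them. Library 4 was again the lowest, with 68 counts where the other NT + Stroke libraries had 537 to 1358.

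*Ms4a7* (ENSMUSG00000024672, chromosome 19, 11321039 to 11336146) was 3.97 to 12.6 CPM in NT + Stroke, median 7.29, and 0.0934 to 0.816 CPM in NT + Sham, median 0.388. It spread less over the stroke libraries than *Cd5l* or *Lgals3*: its highest library was 3.18-fold above its lowest, against 26.0-fold for *Cd5l* and 10.1-fold for *Lgals3*. *Cd36* (ENSMUSG00000002944, chromosome 5, 17781690 to 17888801) was 1.28 to 8.56 CPM in NT + Stroke, median 5.65, and 0.140 to 1.01 CPM in NT + Sham, median 0.540. The groups of *Ms4a7* and *Cd36* did not overlap, with log2 fold changes of 4.01 (SE 0.357) and 3.21 (SE 0.451). *Clec12a* (ENSMUSG00000053063, chromosome 6, 129342691 to 129365303) was 0.921 to 5.84 CPM in NT + Stroke, median 4.37, and 0.268 to 1.27 CPM in NT + Sham, median 0.820. Only library 4 of NT + Stroke, at 0.921 CPM, lay within the sham range of *Clec12a*, and the log2 fold change was 2.30 (SE 0.409). Library 4 was the lowest of its group in 5 of 5 lesion genes.

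The border genes formed 2 sets by size of difference. *Mrc1* (ENSMUSG00000026712, chromosome 2, 14229392 to 14332057), the mannose receptor, was 5.14 to 8.72 CPM in NT + Stroke, median 7.08, and 2.50 to 4.03 CPM in NT + Sham, median 3.62. No stroke library of *Mrc1* reached down to the sham range (log2 fold change 1.07, SE 0.153). *F13a1* (ENSMUSG00000039109, chromosome 13, 36867178 to 37050244) was 2.02 to 5.59 CPM in NT + Stroke, median 4.22, and 1.45 to 3.12 CPM in NT + Sham, median 2.0. *Pf4* (ENSMUSG00000029373, chromosome 5, 90772435 to 90773383) was 1.86 to 4.16 CPM in NT + Stroke, median 2.99, and 1.10 to 2.07 CPM in NT + Sham, median 1.30. *F13a1* and *Pf4* overlapped between the groups in the low stroke libraries, and their log2 fold changes were 0.93 (SE 0.238) and 1.01 (SE 0.218).

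For the other 2 border genes, stroke and sham libraries of NT mice lay over one another. *Cd163* (ENSMUSG00000008845, chromosome 6, 124304656 to 124330527) was 1.80 to 4.49 CPM in NT + Stroke, median 2.86, and 0.934 to 3.32 CPM in NT + Sham, median 2.85, a log2 fold change of 0.27 (SE 0.274). *Lyve1* (ENSMUSG00000030787, chromosome 7, 110850607 to 110863239) was 0.492 to 1.53 CPM in NT + Stroke, median 0.704, and 0.561 to 1.33 CPM in NT + Sham, median 0.860. Its log2 fold change of −0.13 (SE 0.332) was 0.01 without library 1 of NT + Sham, so *Lyve1* had no settled direction. The border genes were also lowest in another library than the lesion genes. Library 3 of NT + Stroke was lowest in 4 of 5 border genes, whereas it was lowest in 0 of 5 lesion genes.

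**Figure D1:**
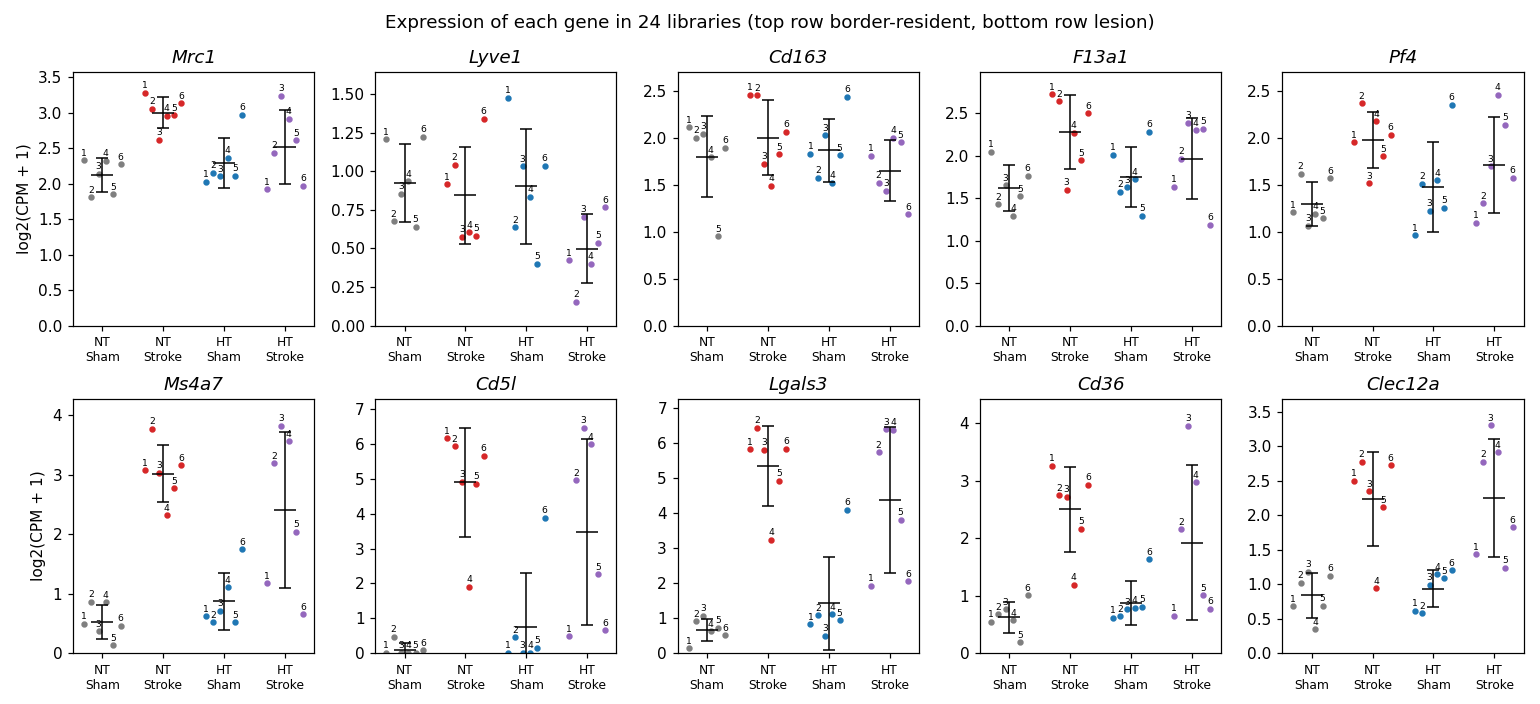
Expression of the 10 genes as log2(CPM + 1) in each library, labelled by its number, with bars for the mean ± SD of the 6 libraries of each group. The top row shows border genes and the bottom row lesion genes, and library 6 of HT + Sham lies above, and libraries 1 and 6 of HT + Stroke below, most of their groups in the lesion genes.

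Per length, the order of the 10 genes differed between sham and stroke mice. In NT + Stroke, *Lgals3* (26.8 ± 14.5 FPKM) and *Cd5l* (20.4 ± 12.8 FPKM) were highest and overlapped each other in spread, ahead of *Pf4* (4.29 ± 1.13 FPKM), which had led in sham mice. *Ms4a7* (1.73 ± 0.663 FPKM), *Cd36* (1.50 ± 0.741 FPKM) and *Mrc1* (1.15 ± 0.203 FPKM) followed within their spread. *Clec12a* (0.762 ± 0.337 FPKM), *F13a1* (0.616 ± 0.217 FPKM) and *Cd163* (0.593 ± 0.219 FPKM) also could not be told apart, and *Lyve1* was last at 0.294 ± 0.147 FPKM. In HT + Stroke the same 5 genes led, *Lgals3* at 22.3 ± 21.8, *Cd5l* at 16.1 ± 19.5, *Pf4* at 3.54 ± 1.84, *Ms4a7* at 1.45 ± 1.27 and *Cd36* at 1.34 ± 1.66 FPKM. *Clec12a* was 0.851 ± 0.602, *Mrc1* 0.827 ± 0.382, *F13a1* 0.473 ± 0.191, *Cd163* 0.417 ± 0.129 and *Lyve1* 0.152 ± 0.0775 FPKM there, and the ranges of mean ± SD overlapped between each neighbouring pair from *Clec12a* to *Cd163*. In HT + Sham, *Pf4* led at 2.70 ± 1.60 FPKM, and *Lgals3* (1.86 ± 3.41 FPKM) and *Cd5l* (1.19 ± 2.81 FPKM) came next only through library 6, where they were 8.82 and 6.92 FPKM. The remaining genes of HT + Sham were *Mrc1* at 0.639 ± 0.231, *Cd163* at 0.506 ± 0.175, *F13a1* at 0.367 ± 0.131, *Lyve1* at 0.320 ± 0.177, *Cd36* at 0.252 ± 0.171, *Ms4a7* at 0.209 ± 0.172 and *Clec12a* at 0.172 ± 0.0635 FPKM, none beyond the spread of its neighbour. Compared within libraries, however, *Cd163* was above *F13a1* in 6 of 6 HT + Sham libraries, and *Mrc1* above *F13a1* in 6 of 6 HT + Stroke libraries.

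Summed per length, the balance of the gene sets turned over with stroke. The 5 border genes together were 2.74 to 4.66 FPKM in NT + Sham (median 3.64) and 4.39 to 9.09 FPKM in NT + Stroke (median 7.36). The 5 lesion genes together were 0.376 to 1.19 FPKM in NT + Sham (median 0.740) and 7.45 to 82.8 FPKM in NT + Stroke (median 55.0). Lesion sums were 0.0958 to 0.335 times the border sums in NT + Sham and 1.04 to 11.2 times in NT + Stroke. *Cd5l* and *Lgals3* made up 80.6% to 93.2% of the lesion sum in NT + Stroke, against 14.3% to 67.4% in NT + Sham. Within the border sum, the share of *Pf4* moved little, from 45.8% to 67.3% in NT + Sham and from 54.5% to 69.6% in NT + Stroke.

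By the same ratio, the 3 libraries lay at the end of their own groups. In HT + Sham the lesion sum was 0.204 to 0.325 times the border sum in 5 libraries and 1.97 times in the library labelled HT + Sham 6. In HT + Stroke it was 0.842 and 0.711 times in the libraries labelled HT + Stroke 1 and 6, and 1.49 to 17.2 times in the other 4. All 3 lay above every NT + Sham library and at or below 1.97, where only library 4 of NT + Stroke (1.04) and library 5 of HT + Stroke (1.49) also lay among the stroke libraries.

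**Figure D2:**
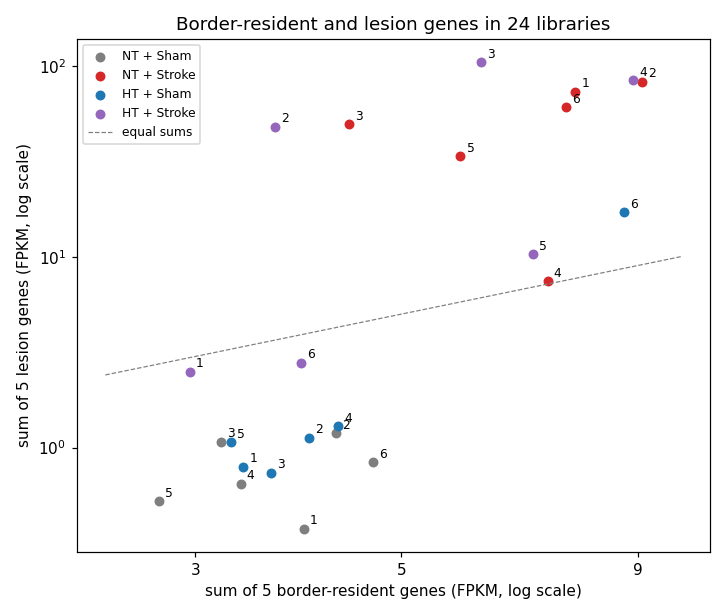
Sum of the 5 lesion genes against the sum of the 5 border genes (FPKM, log axes) in 24 libraries, each point labelled with its library number and coloured by group, with a dashed line where the sums are equal. Sham libraries lie below the line except library 6 of HT + Sham, and stroke libraries lie above it except libraries 1 and 6 of HT + Stroke.

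Other genes of the same and neighbouring cells were counted from lists, with edgeR's quasi-likelihood test and Benjamini-Hochberg adjustment over all genes. In NT + Stroke vs NT + Sham, 9 of 10 tested genes of a list of 15 other border macrophage genes rose and 0 fell, led by *Ccl8* (log2 fold change 3.70, SE 0.382, adjusted *P* = 2.05e-06), a monocyte chemokine, and *Wfdc17* (3.39, SE 0.359, adjusted *P* = 5.99e-06). Of 15 other lesion and infiltrating macrophage genes, 11 were tested, 10 rose and 0 fell, led by the elastase *Mmp12* (7.90, SE 0.897, adjusted *P* = 7.42e-05) and *Atp6v0d2* (7.80, SE 0.836, adjusted *P* = 3.74e-05), a proton pump subunit. Their median log2 fold changes over the tested genes were 1.35 and 2.76. The lists were chosen with earlier results of these data known. Genes such as *Mmp12*, with 0 to 2 counts in NT + Sham, passed the filter on low counts only through stroke libraries. Nothing is therefore read from the order of these medians. Of 12 homeostatic microglia genes, 10 rose and 0 fell, with smaller differences: *Olfml3* had the largest at 0.89 (SE 0.0752, adjusted *P* = 2.46e-07) and *Fcrls* followed at 0.88 (SE 0.0966, adjusted *P* = 4.19e-06), and the median was 0.63. The summed level of the other border genes was 34.9 to 40.7 CPM in NT + Sham and 67.7 to 140 CPM in NT + Stroke, that of the other lesion genes 121 to 171 and 304 to 829 CPM, and that of the microglia genes 293 to 345 and 436 to 542 CPM. The sums of the other lesion genes include *Fabp5*, at a mean of 114 CPM in NT + Sham and 142 CPM in NT + Stroke. Most of the NT + Sham sum was therefore *Fabp5*, the tested gene of that list that was not called (0.32, SE 0.122, adjusted *P* = 0.0645). No gene of these lists was at 0 throughout a group.

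Markers of cells that share these genes or border the brain moved as well. All 13 meningeal fibroblast genes rose, led by the collagens *Col3a1* (log2 fold change 4.41, SE 0.418, adjusted *P* = 2.65e-05) and *Col1a1* (3.64, SE 0.370, adjusted *P* = 4.61e-05). Their summed level was 144 to 173 CPM in NT + Sham, 406 to 1081 in NT + Stroke, 130 to 249 in HT + Sham with 442 in library 6, and 183 to 1092 in HT + Stroke, and no gene of the list was at 0 throughout a group. Of 6 vessel endothelial genes, 4 rose, among them *Fabp4* (4.58, SE 0.710, adjusted *P* = 0.000518), which lipid-laden macrophages also use, and *Cdh5* (0.60, SE 0.102, adjusted *P* = 0.000225). Their summed level was 96.8 to 116 CPM in NT + Sham and 121 to 149 in NT + Stroke. Of the 4 tested lymphatic endothelial genes, 1 rose, *Pdpn* (1.02, SE 0.0858, adjusted *P* = 2.35e-07), which astrocytes and fibroblasts also carry. Whether the section kept its meninges is not stated, and the part of meningeal and endothelial cells in the macrophage gene differences was not tested.

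Markers of blood cells, choroid plexus and neurons were mixed. Of 6 platelet genes, which matter for *Pf4*, 2 were tested and 1 rose (*Alox12*, 1.34, SE 0.309, adjusted *P* = 0.00335), and their summed level was 5.93 to 6.98 CPM in NT + Sham and 7.00 to 12.1 in NT + Stroke. The platelet chemokine *Ppbp* had 0 to 4 counts in every library except library 5 of NT + Stroke, which had 38. At 2.49 CPM, *Pf4* in that library lay inside the range of its group. Of 6 neutrophil genes, 2 were tested and both rose, *S100a8* (3.00, SE 0.798, adjusted *P* = 0.0174) and *S100a9* (2.98, SE 0.867, adjusted *P* = 0.0276), with a summed level of 1.01 to 2.94 CPM in NT + Sham and 2.83 to 22.6 in NT + Stroke besides 55.0 in library 5. None of the 5 red blood cell genes passed the test, and their sums overlapped (66.8 to 95.0 and 42.6 to 181 CPM). Of 5 tested choroid plexus genes, 2 rose, *Aqp1* (1.87, SE 0.382, adjusted *P* = 0.00371) and *Clic6* (1.08, SE 0.366, adjusted *P* = 0.0427). The sums of the list were 7.60 to 16.4 CPM in NT + Sham and 15.2 to 32.1 CPM in NT + Stroke. *Ttr* of this list had 7 to 29 counts in NT + Stroke. In NT + Sham it had 2 to 24 besides 188 in library 5, the library with the highest sum. Of 6 neuronal genes, 3 fell, the largest *Slc17a7* (−0.49, SE 0.0826, adjusted *P* = 0.000232) and *Snap25* (−0.41, SE 0.0564, adjusted *P* = 3.34e-05), and *Gad2* rose (0.37, SE 0.0959, adjusted *P* = 0.00899).

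After stroke in HT mice, all 5 lesion genes had a higher mean than in HT + Sham, by 4.77-fold to 12.4-fold, and the border genes ranged from 0.472-fold to 1.28-fold. The median log2 fold change was 0.34 for border genes and 2.73 for lesion genes, beside 0.000687 over all genes. Of 16741 genes tested, 0.544% were called higher, 0.102% called lower, and 0.579% did not overlap between the groups with stroke higher. *Clec12a* was the 1 gene of the 10 in the former and the latter class, and 0 were called lower. Its HT + Stroke libraries were 1.36 to 8.91 CPM, median 4.19, all above the HT + Sham range of 0.493 to 1.30 CPM, median 1.05, and its log2 fold change was 2.25 (SE 0.466). This contrast too was among those known when the genes were picked.

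For the other 4 lesion genes, the libraries of HT + Stroke were spread over the whole range from sham to stroke. *Cd5l* was 0.398 to 87.2 CPM in HT + Stroke, median 17.0, and 0 to 13.8 CPM in HT + Sham, median 0.0535. The highest HT + Sham library, 6, stood above HT + Stroke libraries 1, 5 and 6, and the log2 fold change was 3.63 (SE 1.55). *Lgals3* was 2.79 to 83.1 CPM in HT + Stroke, median 32.6, and 0.406 to 16.1 CPM in HT + Sham, median 1.01. Library 6 of HT + Sham again lay above libraries 1, 5 and 6 of HT + Stroke, and the log2 fold change was 3.49 (SE 1.17). *Ms4a7* was 0.574 to 13.1 CPM in HT + Stroke, median 5.61, and 0.428 to 2.35 CPM in HT + Sham, median 0.586 (log2 fold change 2.73, SE 0.762). *Cd36* was 0.569 to 14.5 CPM in HT + Stroke, median 2.23, and 0.533 to 2.10 CPM in HT + Sham, median 0.710 (log2 fold change 2.34, SE 0.825). Library 3 of HT + Stroke was the highest in each of these 4 genes. Without it, the log2 fold changes were 2.97 for *Cd5l*, 3.12 for *Lgals3*, 2.35 for *Ms4a7*, 1.48 for *Cd36* and 1.93 for *Clec12a*, and 0.12 for *Mrc1*.

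The border genes of HT mice overlapped between stroke and sham in every case. *Mrc1* was 2.79 to 8.46 CPM in HT + Stroke, median 4.77, and 3.08 to 6.86 CPM in HT + Sham, median 3.38 (log2 fold change 0.34, SE 0.276). *F13a1* and *Pf4* differed by 0.34 (SE 0.288) and 0.36 (SE 0.370) on the log2 scale, and *Cd163* by −0.30 (SE 0.250). *Lyve1* was the lowest in relation to sham, with 0.113 to 0.702 CPM in HT + Stroke, median 0.397, and 0.321 to 1.78 CPM in HT + Sham, median 0.914, or 2 to 14 against 6 to 30 counts. All 6 HT + Stroke libraries lay below the HT + Sham median of *Lyve1* (log2 fold change −1.08, SE 0.419), although the groups overlapped.

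Without the libraries labelled HT + Sham 6, HT + Stroke 1 and HT + Stroke 6, 8 of the 10 log2 fold changes of HT mice were nearer to those of NT mice, and those of *Clec12a* and *Lyve1* were farther from them. Log2 fold changes were then 8.85 for *Cd5l*, 6.05 for *Lgals3*, 3.78 for *Ms4a7*, 3.30 for *Cd36* and 2.69 for *Clec12a*. Among border genes they were 0.83 for *Mrc1*, 0.80 for *F13a1*, 0.97 for *Pf4*, −0.02 for *Cd163* and −1.18 for *Lyve1*. The number of the 10 genes called higher went from 1 to 7, with *Pf4*, *Cd163* and *Lyve1* not called, while the share of all genes called higher went from 0.544% to 6.81%. Without HT + Stroke 3 alone, 0 of the 10 and 0.38% of all genes were called higher. The genes were picked with this contrast known, and the 3 libraries were left out after the data were seen. Nothing is therefore read from these counts, nor from the fold changes nearer to those of NT mice. Of the 70 tested genes of the other lists, 0 were called in HT + Stroke vs HT + Sham by edgeR with all libraries. In edgeR 36 had an unadjusted *P* under 0.05, and DESeq2 called 16. Over all 16741 genes tested in edgeR, 1754 higher and 1088 lower genes had an unadjusted *P* under 0.05. DESeq2 called 661 higher and 230 lower of 16716. Without the 3 libraries, 6 of 10 tested other border genes, 10 of 10 other lesion genes, 6 of 12 microglial and 8 of 13 fibroblast genes rose, as did 2 of 2 neutrophil, 2 of 6 vessel and 1 of 4 lymphatic endothelial genes. No platelet, red blood cell, choroid plexus or neuronal gene was called without them.

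**Figure D3:**
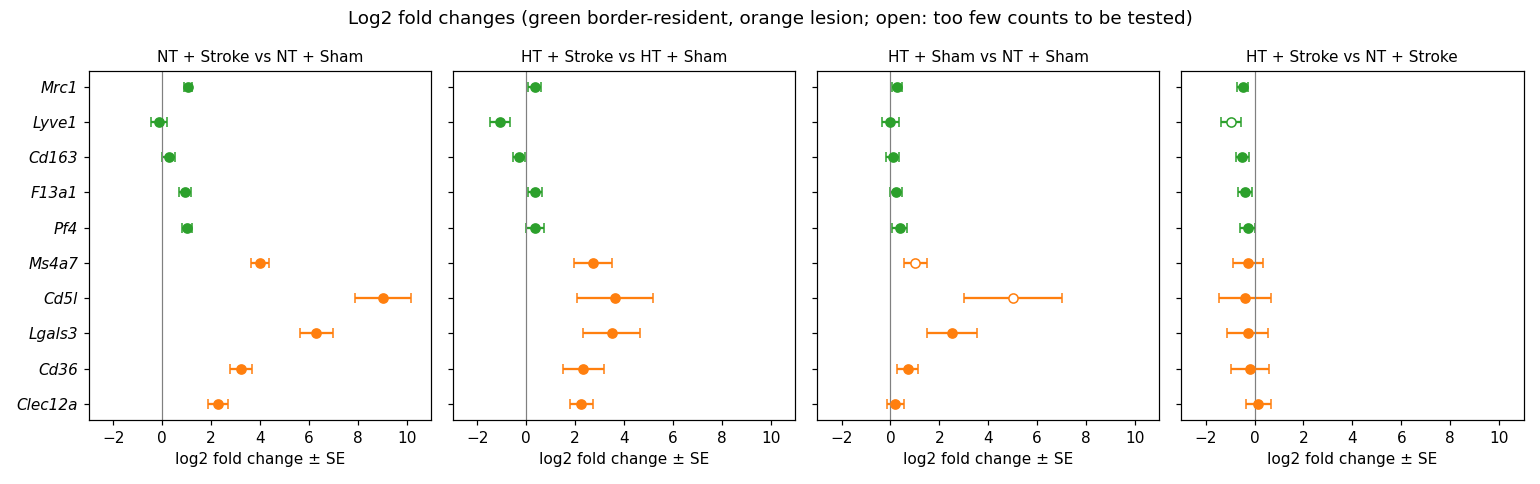
Log2 fold changes with their SE for the 10 genes in 4 comparisons, green for border genes and orange for lesion genes, with open symbols for untested genes. The lesion genes lie between 2.30 and 9.04 in NT + Stroke vs NT + Sham and between 2.25 and 3.63 in HT + Stroke vs HT + Sham, and the differences of HT from NT lie between −0.96 and 0.70 apart from *Cd5l* (5.00), *Lgals3* (2.51) and *Ms4a7* (1.02) in sham mice.

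Angiotensin II without stroke was tested in HT + Sham vs NT + Sham. No gene of 16581 was called (0%) in edgeR's quasi-likelihood test, and 8.03% passed 0.05 without adjustment. Of the 10 genes, 8 were tested and 0 were called. With an unadjusted *P*, 1 passed, *Lgals3* (log2 fold change 2.51, SE 1.02, adjusted *P* = 0.577), and DESeq2 called 0 and gave *Lgals3* no adjusted *P*. Over all genes, DESeq2 called 0 higher and 1 lower of 16577. *Ms4a7* (log2 fold change 1.02, SE 0.466) had 7 to 19 counts in 5 HT + Sham libraries and 47 in library 6, *Cd5l* (5.00, SE 2.01) had 0 to 6 and 276, and neither passed the filter on low counts. The border genes had log2 fold changes of 0.0028 (*Lyve1*, SE 0.352) to 0.38 (*Pf4*, SE 0.307), median 0.22, with adjusted *P* of 0.839 to 0.999, and *Cd36* and *Clec12a* had 0.70 (SE 0.413, adjusted *P* = 0.734) and 0.20 (SE 0.347, adjusted *P* = 0.939). All genes together had a median of −0.00144.

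The size of these differences came from 1 library in most genes. Without HT + Sham 6, the log2 fold change was 0.50 for *Lgals3*, 0.22 for *Cd36*, 0.08 for *Clec12a*, 0.03 for *Mrc1* and *F13a1*, −0.0040 for *Pf4*, −0.04 for *Lyve1* and −0.11 for *Cd163*. That library was the highest of HT + Sham in 5 of 5 lesion genes and 4 of 5 border genes. Without it, 0 of the tested genes were called as well.

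Among stroke mice, angiotensin II was tested in HT + Stroke vs NT + Stroke. No gene of 17008 was called (0%), and 7.23% passed 0.05 without adjustment. Of the 10 genes, 9 were tested, 0 were called, 0 passed without adjustment and DESeq2 called 0. The median log2 fold change was −0.49 over the border genes and −0.27 over the lesion genes, beside −0.0094 over all genes. The means of the tested border genes were lower in HT mice, by −0.29 (*Pf4*, SE 0.294, adjusted *P* = 0.765) to −0.50 (*Cd163*, SE 0.261, adjusted *P* = 0.654) on the log2 scale. *Mrc1* was lower than the lowest NT + Stroke library in 4 of 6 HT + Stroke libraries (log2 fold change −0.49, SE 0.238, adjusted *P* = 0.654), and *F13a1* differed by −0.38 (SE 0.289, adjusted *P* = 0.698). *Lyve1* had 2 to 14 counts in HT + Stroke, against 9 to 39 in NT + Stroke. It was too low to be tested, and all 6 HT + Stroke libraries lay below the NT + Stroke median (log2 fold change −0.96, SE 0.395).

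Among the lesion genes the errors were larger. *Ms4a7* (−0.27, SE 0.614), *Cd5l* (−0.37, SE 1.06), *Lgals3* (−0.29, SE 0.837) and *Cd36* (−0.19, SE 0.761) had lower means in HT + Stroke and *Clec12a* (0.15, SE 0.506) a higher one, with adjusted *P* of 0.919 to 0.959. Without HT + Stroke 1 and 6, these 5 log2 fold changes were 0.23, 0.19, 0.25, 0.31 and 0.48, so 4 of them changed sign. Without HT + Stroke 3 instead, they were −0.64, −1.03, −0.65, −1.03 and −0.17. The border genes stayed negative without the 2 libraries, at −0.21 for *Mrc1*, −0.41 for *Cd163*, −0.10 for *F13a1*, −0.05 for *Pf4* and −1.10 for *Lyve1*, which was then tested (adjusted *P* = 0.854). No gene was called in this setting either, with 10 tested. Without HT + Stroke 3 instead, *Mrc1* was at −0.70, its most negative value with 1 library left out. No gene was called by edgeR then, but 1998 higher and 1493 lower of 17108 genes had an unadjusted *P* under 0.05. With all libraries these were 569 and 661 of 17008.

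The interaction asks whether the stroke difference itself differed between HT and NT mice. No gene of 17608 passed edgeR's quasi-likelihood test (0%), and 10.4% had an unadjusted *P* under 0.05. DESeq2 called 4 higher and 18 lower of 17584 genes. All 10 genes were tested, with 0 called by edgeR or by DESeq2. *Mrc1* was the 1 gene with an unadjusted *P* under 0.05 (log2 difference of fold changes −0.73, SE 0.328, adjusted *P* = 0.454). All 10 values were negative, which means that the log2 fold change after stroke was lower in HT than in NT mice. For *Lyve1* it was negative in both (−0.13 in NT, −1.08 in HT) and for *Cd163* it was 0.27 in NT and −0.30 in HT. The values ran from −0.06 for *Clec12a* (SE 0.653, adjusted *P* = 0.983) to −5.42 for *Cd5l* (SE 2.75, adjusted *P* = 0.504), with −2.82 for *Lgals3* (SE 1.52, adjusted *P* = 0.525). The median was −0.66 over the border genes and −1.29 over the lesion genes, beside 0.00335 over all genes. Without the 3 libraries that stood apart the values were −0.23 for *Mrc1*, −0.18 for *Cd5l* and −0.25 for *Lgals3*, *Cd36* (0.09) and *Clec12a* (0.39) were positive, and 0 were called. *Lyve1* had the most negative value then, at −1.05. Leaving out HT + Stroke 3 alone gave the most negative value of any 1 library left out in *Mrc1* (−0.95), *Lgals3* (−3.19), *Ms4a7* (−1.66), *Cd36* (−1.74) and *Clec12a* (−0.38). It did not do so in the other genes. No gene was called by edgeR without it, and 1462 higher and 1677 lower of 17719 genes had an unadjusted *P* under 0.05, against 800 and 1036 of 17608 with all libraries.

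The other lists gave no call in these tests. In HT against NT mice, among sham and among stroke libraries, and in the interaction, 0 of the 64, 78 and 82 tested genes of the 11 lists had an adjusted *P* under 0.05 in edgeR or DESeq2. Over all genes tested in edgeR, 8.03%, 7.23% and 10.4% had an unadjusted *P* under 0.05. Of the list genes, 18, 2 and 14 did. Among these were 7 of 13 meningeal fibroblast genes, 1 of 6 tested other border genes and 3 of 6 tested other lesion genes in HT + Sham vs NT + Sham, and 0 genes of these 3 lists in HT + Stroke vs NT + Stroke. The fibroblast sums of HT + Sham given above include the 442 CPM of library 6. In that library, *Col1a1* had 1198 and *Gpnmb* 1579 counts, against 161 to 352 and 79 to 184 in the rest of HT + Sham. Whether the unadjusted passes of the lists rest on that library was not tested.

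Within groups, the lesion genes went up and down together and the border genes did so less. To describe this, log2(CPM + 1) was centred within each group and correlated over the 24 libraries, which share depth and tissue piece, so the values carry no *P*. Pearson's r was 0.738 to 0.976 over the 10 pairs of lesion genes (median 0.878, Spearman's rho median 0.856), closest for *Cd5l* with *Lgals3*. It was 0.101 to 0.758 over the 10 pairs of border genes (median 0.448, rho median 0.491), closest for *Mrc1* with *F13a1*. Between a border and a lesion gene it was 0.0282 to 0.760 (median 0.412, rho median 0.411, 25 pairs). *Mrc1* went with the lesion genes more closely than other border genes did, at 0.760 with *Ms4a7* and 0.759 with *Cd5l*, whereas *Lyve1* was at 0.0282 with *Lgals3* and 0.0426 with *Ms4a7*. With the 3 libraries that stood apart left out (21 libraries), the medians were 0.862 for lesion pairs, 0.383 for border pairs and 0.205 between border and lesion genes. Without HT + Stroke 3 they were 0.877, 0.503 and 0.508. The sets also differed in spread. In HT + Stroke, the highest library was 2.35-fold to 6.19-fold above the lowest in border genes and 6.57-fold to 219-fold in lesion genes. *Lyve1* had only 2 to 14 counts there. The part of counting error and of spread in the difference between the sets was not tested.

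**Figure D4:**
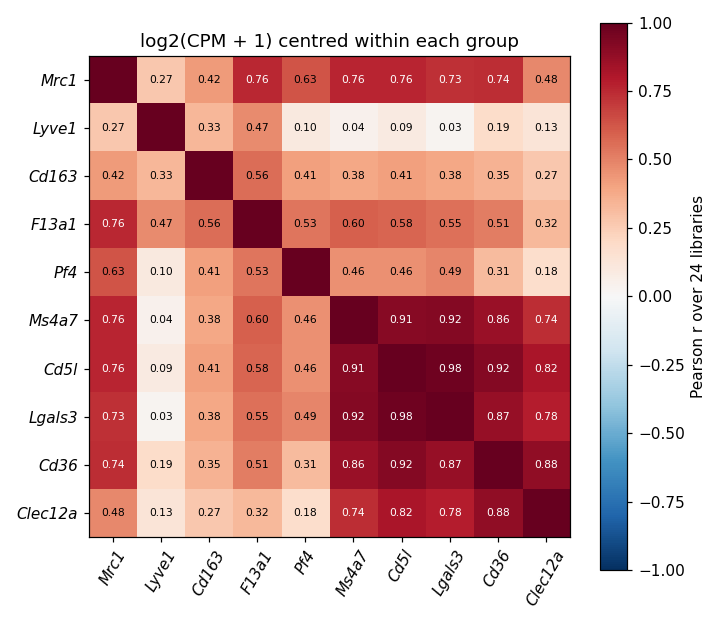
Pearson's r between each pair of the 10 genes, from log2(CPM + 1) centred within each of the 4 groups over 24 libraries, on a colour scale from −1 to 1. The lower right block of lesion genes lies between 0.738 and 0.976, and the row of *Lyve1* holds the lowest values.

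The genes with the most similar pattern were named in the same way from all genes whose mean reached 1 CPM. *Cd5l* was closest to *Atp6v0d2* (r = 0.990, rho = 0.981) and *Mmp12* (r = 0.976), *Lgals3* to *Atp6v0d2* (r = 0.976) and the lysozyme gene *Lyz2* (r = 0.976), and *Cd36* to *Mmp12* (r = 0.945) and *Atp6v0d2* (r = 0.938). *Ms4a7* was closest to *C3ar1* (r = 0.962), a complement receptor, and *Unc93b1* (r = 0.960), and *Clec12a* to *Lpl* (r = 0.929), lipoprotein lipase, and *Col14a1* (r = 0.889). Among border genes, *Mrc1* was closest to *Mgst1* (r = 0.887) and *Cyp1b1* (r = 0.882), *F13a1* to *Fmod* (r = 0.881) and *Foxc1* (r = 0.869), and *Pf4* to *Ccdc163* (r = 0.845) and *Cyp4f13* (r = 0.808). *Cd163* was closest to *Kcnn2* (r = 0.798) and *Hacd2* (r = 0.734), and *Lyve1* to *Tmem52* (r = 0.685) and *Adra1a* (r = 0.652). With the 2 libraries farthest from the median of each gene left out, r lay between 0.572 (*Lyve1* with *Adra1a*) and 0.987 (*Cd5l* with *Atp6v0d2*).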

How the data were processed

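Poly(A) RNA was sequenced, and the authors deposited 4 tables, 1 for each comparison of groups, which list 31034 to 31883 genes each. The counts as deposited are reads per gene, not normalized. Per the submitters' processing notes, the tools included featureCounts 1.5.0-p3 and DESeq2 1.20.0. The methods name the Ensembl mouse genome, and the aligner and build are not given in the sources used here. The FPKM as deposited were scaled by the authors to gene length and library size. The authors' normalized and mean columns (56) were not used, nor were the log2 fold changes and *P*-values deposited from their own test. Tables were joined by gene identifier (33981 genes). Of 48 comparisons of a library between tables, 0 differed, so HT + Stroke was compared with HT + Sham across tables. No batch or date is given, so batches were not examined.

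Comparisons used edgeR 4.0.16 under R 4.3.3: filterByExpr (minimum count 10, minimum total count 15), TMM scaling and a two-sided robust quasi-likelihood test on the groups compared (all 24 libraries for the interaction), Benjamini-Hochberg adjustment over every tested gene and a threshold of 0.05. A gene below the filter has a fitted log2 fold change and no *P*. CPM used TMM-scaled library sizes. Total counts per library limit precision at 15922919 to 24865998, and floors of 3 counts cover counting error only. The test was checked on simulated data.

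Alternatives were DESeq2 1.42.0, other scaling, no filter, limma 3.58.1 on log2(FPKM + 1) and log2(FPKM + 0.1), 1 fit of all 4 groups, a replicate block and each library left out. Leaving out 3 libraries together was added after the data were seen. The 10 genes, the lists and the tests were chosen with earlier results of these data known. Genes named from a list are up to 2 with the highest and 2 with the lowest log2 fold change among those called. Similar genes are the 2 with the highest Pearson's r for each gene, among genes whose mean reached 1 CPM.

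Gene positions are those of the tables, and promoter windows come from RefSeq on GRCm38.p6.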

Additional observations from a re-analysis of the deposited data

Results flagged for a closer look

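In 40 groups of 6 libraries (10 genes in 4 groups), the highest or lowest library was compared with the rest by Dixon's ratio of gap to range. There were 8 groups with a library past the 95% critical value for 6 libraries. Chance gives about 1 in 20 only for independent groups of normally distributed values. The 10 genes share libraries, so the 8 groups are not set against that rate. The library labelled HT + Sham 6 was the highest in 6 of them: *Mrc1* at 6.86 CPM (others 3.08 to 4.16), *Pf4* at 4.11 CPM (0.948 to 1.93), *Ms4a7* at 2.35 CPM (0.428 to 1.15), *Cd5l* at 13.8 CPM (0 to 0.370), *Lgals3* at 16.1 CPM (0.406 to 1.15) and *Cd36* at 2.10 CPM (0.533 to 0.749). *Cd5l* in library 2 of NT + Sham was 0.381 CPM, from 7 counts, where the others had 0 to 0.0533 CPM. *Cd163* in library 5 of NT + Sham was the lowest at 0.934 CPM, where the others had 2.47 to 3.32 CPM.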

How the results depend on the processing

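Counts of the 10 genes called stayed at 8 in NT + Stroke vs NT + Sham and at 0 for HT against NT mice (sham or stroke) and the interaction under every alternative run. The 8 come from a contrast known when the genes were picked, so nothing is read from them. In HT + Stroke vs HT + Sham, 1 was called, against 3 with DESeq2, 4 with all 4 groups in one fit, 7 with the 3 libraries that stood apart left out, 0 to 2 with 1 library left out, and 0 with no scaling, upper-quartile scaling, no filter, either limma fit or the replicate block. Over all genes, 91 were called higher, against 661 with DESeq2, 839 in one fit, 1155 without the 3 libraries, 6 to 451 with 1 library left out and 40 to 149 in the remaining alternatives. The cause was not tested. In NT + Stroke vs NT + Sham, 2426 of all genes were called higher, against 2128 to 2983 under the alternatives. For HT against NT mice and the interaction, 0 of all genes were called in every setting but DESeq2. It called 1 lower gene in HT + Sham vs NT + Sham, and 4 higher and 18 lower in the interaction. Of 1079 alternative values of log2 fold changes of the 10 genes, 1014 kept direction and side of the threshold and 38 reversed.

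In HT + Sham vs NT + Sham, *Lyve1* was −0.040 with limma on log2(FPKM + 0.1) and −0.057 with the replicate block. With 1 library left out, it was −0.29 to 0.18, *Cd163* −0.11 to 0.17 and *Pf4* −0.0040 to 0.52. In HT + Stroke vs NT + Stroke, leaving out HT + Stroke 1 and 6 gave 0.23 for *Ms4a7*, 0.19 for *Cd5l*, 0.25 for *Lgals3* and 0.31 for *Cd36*, the replicate block gave −0.020 for *Clec12a*, and leaving out 1 library gave −1.03 to 0.039 for *Cd36* and −0.17 to 0.34 for *Clec12a*. In NT + Stroke vs NT + Sham, *Lyve1* was −0.43 to 0.010 with 1 library left out. In the interaction, *Cd36* was 0.093 and *Clec12a* 0.39 without the 3 libraries, and *Clec12a* was 0.0042 with limma on log2(FPKM + 1) and −0.38 to 0.13 with 1 library left out.

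Libraries share only a number across groups: same-numbered libraries correlated at −0.518 to 0.408 in their deviations from the group means, so the replicate block is not read as a pairing. Low counts limit *Lyve1* in all groups, and *Cd5l* and *Ms4a7* in sham mice.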
